A study of Mus musculus with 4 samples.

Results

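Cells of the short-term haematopoietic stem cell (ST-HSC) gate were examined for how they differ among themselves in 2 adult mice. They were the barcodes of the libraries titled ST_HSC that held at least 1000 detected genes, 2000 or more unique molecular identifiers (UMIs, the tags that mark single captured RNA molecules) and no more than 10% of them from genes of the mitochondrial genome. The filter kept 2633 of 2793 barcodes in mouse 1 and 1707 of 1784 in mouse 2, 4340 cells of the 5579 kept in all 4 libraries. These cells were sorted from bone marrow of male mice aged 14 weeks, strain Tie2-bG-Micm x RosaYFP, as lineage-negative Kit+ Sca1+ CD150- CD48- cells. The other 2 libraries, titled LT_HSC, held CD150+ CD48- cells of the same 2 mice, the long-term gate, and served to check the label. Those of mouse 2 were also set beside the ST-HSC cells for further genes and used to trim gene lists. All 4 groups share strain, age and sex, so no library comes from an unmodified mouse, and the labels name no treatment. Single-cell transcriptomes were read from the 3′ end of each RNA with 10x Chromium chemistry, version 3, and they were made to characterise the stem cells of PolyloxExpress, a cell barcoding method.

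Haematopoietic stem cells sit at the top of the blood cell hierarchy, and the cells just below them keep the ability to make several lineages while they lose long-lasting self-renewal. Flt3, the receptor of the Flt3 ligand cytokine, and the surface sialomucin Cd34 appear as this happens. Multipotent cells are known to carry low amounts of RNA of several lineages at once, a state called lineage priming: transcripts of antibody and recombination genes for lymphocytes, granule and Cebpa transcripts for myeloid cells, platelet gene transcripts for megakaryocytes.

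The 2 ST-HSC libraries were of unequal depth, with 27870823 UMIs and a median of 9881 UMIs and 3228 genes per cell in mouse 1, and 13566531 UMIs and medians of 7504 and 2694 in mouse 2. Each cell was therefore thinned to 5000 UMIs drawn at random, which left out 69 and 117 shallower cells. Cells with many UMIs of other cell types were then set aside, 134 in mouse 1 (5.23%) and 113 in mouse 2 (7.11%). Of these, 108 and 91 passed on globin RNA and 20 and 15 on T and NK cell genes, chiefly Ccl5 and Nkg7. In the cells that remained 5 and 4 of the 8 T and NK cell genes were still detected, summing to 83.4 and 91.4 CPM, with Cd3e, Trac and Gzma at 0 in both mice; their part in the results was not tested. That left 2430 and 1477 cells, and unless stated otherwise percentages of cells refer to these cells at 5000 UMIs, while CPM (UMIs of a gene scaled to a common library total) are sums over all kept cells of a library. The ST-HSC libraries shared 1 barcode, and Scrublet called 2 and 9 cells as doublets, too few to say how many doublets there were. In the mouse 1 library of the LT gate 22 of 39553 barcodes passed the filter, so only the mouse 2 library of that gate, with 1092 cells, is given beside the ST-HSC cells. Only 2 animals stand behind all values, and intervals of a percentage are exact binomial 95% intervals that cover counting error only.

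The label was checked against its 4 markers. A Flt3 UMI was found in 45.1% of ST-HSC cells of mouse 1 (43.1 to 47.1%) and 49.2% of mouse 2, against 6.41% of LT-HSC cells of mouse 2. Cd34 was found in 83.4% and 81.8% of ST-HSC cells, against 38.6% of LT-HSC cells. Plac8, a small cysteine-rich protein of haematopoietic cells, was found in 70.8% and 72.0% of ST-HSC cells, against 273 of 1092 LT-HSC cells, and the tetraspanin Cd53 in 20.9% and 27.1%, against 2.93%. All 4 markers were more frequent in both ST-HSC libraries than in the LT-HSC library. Of the genes behind the gate, Slamf1, which encodes CD150, was found in 0.329% and 0.745% of ST-HSC cells, against 8.97% of LT-HSC cells, and Cd48 in 5.43% and 5.55%, against 0.641%. Kit was found in 67.1% and 69.3% of ST-HSC cells, against 70.3% of LT-HSC cells, and Ly6a, which encodes Sca1, in 62.6% and 65.9%, against 61.9%. Within the gate the 4 label markers were only loosely tied to each other: across cells Pearson's r of log-transformed thinned counts was between 0.055 and 0.16 for every pair of them in either mouse.

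**Figure D1:**
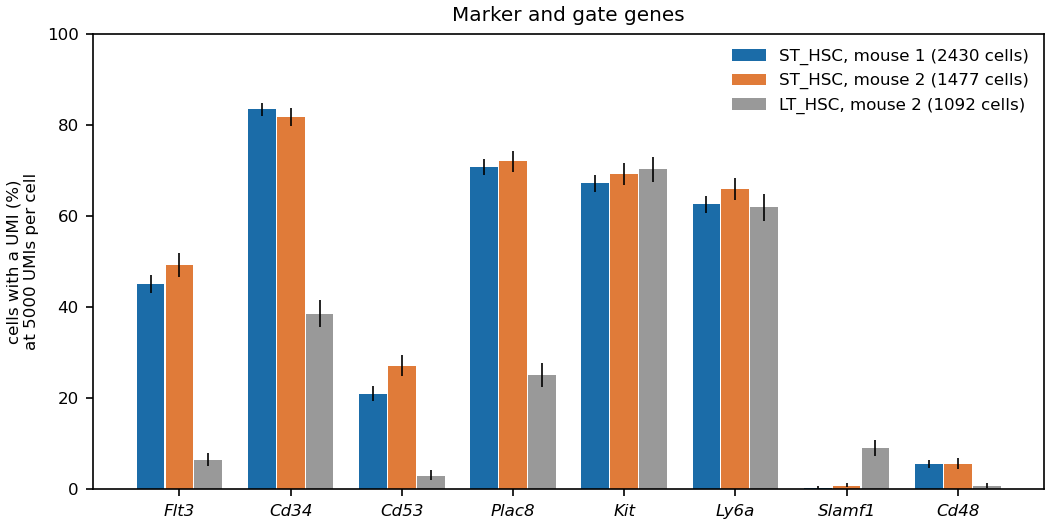
Percentage of cells with at least 1 UMI (y axis) of the 4 label markers and 4 gate genes (x axis) at 5000 UMIs per cell, with exact binomial 95% intervals as lines. Flt3, Cd34, Cd53 and Plac8 stood higher in both ST_HSC libraries than in the LT_HSC library, whereas Kit and Ly6a stood at similar heights in all 3.

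Outside ribosomal protein and mitochondrial genes, the 25 genes with the highest mean CPM took 7.42% of all UMIs in mouse 1 and 7.54% in mouse 2. Counting at the 3′ end gives each captured RNA 1 UMI whatever its length, so levels of different genes are compared here as molecules. Malat1, a nuclear long non-coding RNA, led with 11143 and 10115 CPM, followed by the translation elongation factor Eef1a1 with 8535 and 7686 CPM. Fau, Tpt1, Rack1, Naca, Eef1b2, Eif1 and Npm1, all of translation or ribosome assembly, were also among the 25. The actin gene Actb had 3487 and 6217 CPM, and the actin-binding thymosins Tmsb4x and Tmsb10 had 2488 and 2628 and 1487 and 1789 CPM. Ptma had 3537 and 4221 CPM and Ppia 3060 and 3439 CPM. Of MHC class I, which presents antigen on most nucleated cells, the heavy chain H2-K1 had 1949 and 2257 CPM, its light chain B2m 2014 and 1844 CPM, and H2-D1 was in the list as well. Ifitm1, an interferon-inducible membrane protein used as a stem cell marker, had 1148 and 1546 CPM. The 2 mice ranked genes alike, with Spearman's rho of 0.952 across genes, which are not independent replicates. Of 2975 genes with 50 CPM or more, 4 were over 2-fold higher in mouse 1 and 10 in mouse 2. Those higher in mouse 2 included the neutrophil genes S100a8, S100a9, Ngp and Camp and the globin Hbb-bs. S100a8 had 229 and 845 CPM in mouse 1 and mouse 2. In the cells left after other cell types were set aside, a list of 11 mature neutrophil genes summed to only 14.6 and 23.4 CPM.

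For most genes the measured spread between cells was close to what counting alone gives, for which the variance equals the mean. For genes with few UMIs the ratio of variance to mean stays near 1 even where levels differ between cells. It is thus no sign that most genes do not vary. Over 8275 genes with a mean of 0.05 thinned UMIs or more the median ratio of variance to mean was 1.02 in both mice, and 128 genes (1.55%) exceeded 1.5 in both. The gene that varied most was Wfdc17, which encodes a secreted whey acidic protein domain protein. Its ratio was 11.2 in mouse 1 and 16.2 in mouse 2, with a UMI in 27.1% and 30.7% of cells, so most cells had none and some had many. Its relative Wfdc18 had ratios of 3.52 and 8.91 and a UMI in 8.31% and 10.2% of cells. The platelet chemokine Pf4 followed the same form, at 5.13 and 4.89, with a UMI in 26.8% and 25.2% of cells. Cd74, the chaperone of MHC class II, had 4.04 and 4.70, and the lymphotoxin gene Ltb, a lymphoid cytokine, 3.09 and 2.89 although 76.4% and 76.0% of cells held an Ltb UMI. Abundant genes also entered the list: Malat1 had 8.18 and 7.06, Actb 4.99 and 8.39 and Ifitm1 3.21 and 3.48. Cell cycle genes made up another share, among them Hmgb2, Ccnb2 (3.80 and 5.06, with a UMI in 3.33% and 2.44% of cells), Pclaf, Stmn1, Cenpa, H2afz and Mki67. Meg3, an imprinted long non-coding RNA of long-term stem cells, had 3.88 and 2.59, with a UMI in 4.44% and 4.74% of cells. For Lyz2, the lysozyme of myeloid cells, the mice did not match: the ratio was 6.15 in mouse 1 and 47.5 in mouse 2. Cd69, Rsad2 and Ifi27l2a also differed more than 3-fold in this ratio between the mice.

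Pairs of genes that moved together across cells were sought in each mouse and required in the other. Pearson's r was taken over 2430 and 1477 cells for all 34233675 pairs of the 8275 genes. These values describe the cells and carry no test, since the cells of a mouse share a library and, with 5000 UMIs in each cell, more RNA of one gene leaves less for others. Of all pairs, 902 had an r of 0.2 or more in both mice, and they involved 205 genes. The count moves with depth, being 122 at 3000 and 4132 at 7500 UMIs per cell. Of 1735 pairs past 0.2 in mouse 1, 52.0% also passed it in mouse 2, where their median r was 0.204 and none was negative. Of 1202 pairs past it in mouse 2, 75.04% also passed it in mouse 1, where their median r was 0.241. The closest pairs were of mitosis: Mki67 with Birc5 at 0.70 and 0.58, Cenpf with Ccnb2 at 0.69 and 0.57, and Knstrn with Ccnb2 at 0.62 and 0.56. Next came MHC class II, with H2-Aa and Cd74 at 0.55 and 0.54, and H2-Eb1 and Cd74 at 0.49 and 0.48. In the other direction 58 pairs had an r of −0.2 or less in both mice. The histone variant H2afz and Malat1 had −0.30 and −0.31, which shrank to −0.11 and −0.13 over the 1782 and 1080 cells left once the cells with the most cell cycle RNA, the top 25% by the summed S phase and mitosis genes in each library, were left out. Ppia against mt-Co1, a subunit of the mitochondrial respiratory chain, had −0.28 and −0.28, and −0.22 and −0.21 without those cells.

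**Figure D2:**
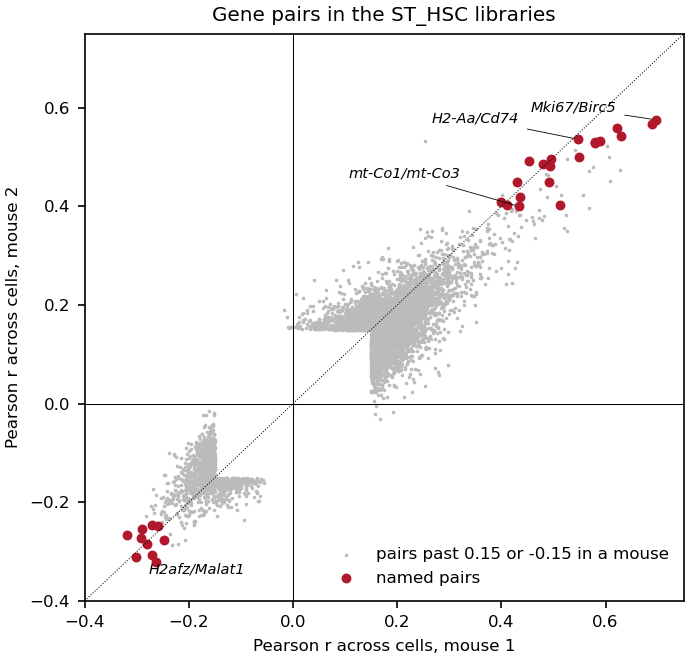
Pearson's r across cells for each gene pair in mouse 1 (x axis) and mouse 2 (y axis), with pairs past 0.15 or −0.15 in either mouse in grey and the named pairs in red. The named pairs lie close to the dotted line of equal r, with Mki67 and Birc5 at the far end and H2afz and Malat1 among the negative ones.

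Genes were gathered into groups by average linkage on the lower of the 2 mice's r, joined down to a mean r of 0.1. There were 18 groups of 4 or more genes. Because the groups were built from both mice, they were also built in 1 mouse and read in the other: of 19 groups built in mouse 1, 15 kept a mean r of 0.1 or more in mouse 2, and of 19 built in mouse 2, 15 did so in mouse 1. Proliferation formed 2 groups. The 63 genes led by Hells, a chromatin helicase, were of DNA replication, such as the licensing factors Mcm2 to Mcm7, the clamp Pcna and the nucleotide enzymes Dut and Tyms, with a mean r of 0.18 and 0.16. The 22 genes led by cyclin Ccnb2 were of mitosis, such as Birc5, Cdca8, Cenpf and Cdc20, with a mean r of 0.24 and 0.19. Without the cells richest in cell cycle RNA the mean r of both was between 0.004 and 0.009, as the choice of those cells by genes that these groups hold in part would give. Another group of 37 genes, led by Ppia and Ptma, held genes of growth such as the nuclear transport GTPase Ran, nucleolin Ncl and fibrillarin Fbl, with 0.15 in both mice. A set of 8 genes of the mitochondrial genome, led by mt-Atp6, formed a group with 0.27 and 0.23, and ribosomal protein genes formed others. A set of 7 immediate early genes led by Fos, including Jun, Fosb and Egr1, formed one too.

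Promoter sequences of the proliferation groups are shown because some of them hold letters of elements known from cell cycle promoters. The 250 bases before each RefSeq gene start (mouse build GRCm38.p6) were searched on both strands, and capitals mark matches. The E2F site, TTTNGCGC, was found in 10 of the 54 Hells group genes that had a window (18.5%), against 1.31% of all 27025 genes with a window. The mitotic cell cycle homology region, TTTGAA, was found in 6 of 18 Ccnb2 group genes (33.3%), against 18.3% of all genes, but also in 10 of 54 Hells group genes (18.5%) and in 6 of 13 genes of the interferon group described next (46.2%). The CCAAT box was found in 12 of 18 Ccnb2 group genes (66.7%) and 32 of 54 Hells group genes (59.3%), against 37.5% of all genes. A match is a description of letters and not a bound site. Mcm5 at chr8:75109326-75109397, plus strand, holds an E2F match on each strand, and the 2 overlap. Ccnb2 at chr9:70421555-70421751 and Cdc20 at chr4:118437344-118437426, both minus strand, hold 1 TTTGAA each, with 3 and 2 CCAAT boxes.
Mcm5: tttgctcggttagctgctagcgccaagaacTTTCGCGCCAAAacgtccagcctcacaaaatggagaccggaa
Ccnb2: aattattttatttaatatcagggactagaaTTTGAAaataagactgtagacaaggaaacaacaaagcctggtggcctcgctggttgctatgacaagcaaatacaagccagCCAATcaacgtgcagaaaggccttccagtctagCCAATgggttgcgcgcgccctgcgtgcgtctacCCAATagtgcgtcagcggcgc
Cdc20: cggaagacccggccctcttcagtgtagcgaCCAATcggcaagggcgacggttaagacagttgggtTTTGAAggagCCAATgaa

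An interferon group of 18 genes was led by Ifit1 and Isg15, both antiviral effectors, and also held the transcription factor Irf7 and the GTPases Iigp1, Igtp and Irgm1, with a mean r of 0.15 in both mice. It was low in level: Ifit1 had 26.6 and 21.7 CPM, Isg15 41.5 and 51.7 CPM and Iigp1 59.96 and 54.8 CPM, with an Iigp1 UMI in 17.4% and 16.7% of cells. Without the cells richest in cell cycle RNA 14 of the 18 genes still fell into 1 group, while with another random thinning 9 did. The interferon-stimulated response element, GAAA and GAAA with any 2 bases between them, was found in 8 of the 13 group genes with a promoter window (61.5%), against 3.46% of all genes. The gamma-activated site, TTCNNNGAA, was found in 5 of 13 (38.5%), against 8.13% of all genes. Isg15 at chr4:156200845-156200926, minus strand, holds 3 overlapping response elements. Igtp at chr11:58199481-58199555, plus strand, holds a gamma-activated site 2 bases before a response element. They are shown for these 2 forms of interferon promoter.
Isg15: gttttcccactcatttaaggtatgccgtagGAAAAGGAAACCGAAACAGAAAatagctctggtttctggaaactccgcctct
Igtp: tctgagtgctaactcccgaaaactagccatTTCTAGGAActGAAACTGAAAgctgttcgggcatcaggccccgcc

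MHC class II was present in the gate: the group of Cd74, H2-Aa, H2-Eb1 and H2-Ab1, with Ly6a and the interferon-inducible Ifitm3, had a mean r of 0.26 and 0.25. A Cd74 UMI was found in 32.3% and 30.5% of ST-HSC cells, against 33.5% of LT-HSC cells. Cd74 is also a dendritic and B cell gene. The dendritic markers Cd209a, Siglech and Itgax were at 0 in mouse 1 and Cd209a at 0 in mouse 2, and the B cell genes Cd79a and Ms4a1 were at 0 in mouse 1. Other genes of these lists were detected. Of 8 dendritic and class II genes, Cd74 among them, 5 and 7 were, and of 7 B cell genes 4 and 5, summing to 42.1 and 47.7 CPM. Whether cells of these types gave part of the Cd74 RNA was not tested. A group's score in a cell is the sum of the log-transformed thinned counts of its genes. Between the Ifit1 and Cd74 groups the scores had an r of 0.30 and 0.26. MHC class I genes H2-K1, H2-D1, B2m, H2-Q4 and H2-Q7 formed a group of their own. All 5 of them held a CCAAT box in the promoter window, against 37.5% of all genes, and H2-Aa, at chr17:34287837-34287901 on the minus strand, holds 1 on the opposite strand, shown as the class II form.
H2-Aa: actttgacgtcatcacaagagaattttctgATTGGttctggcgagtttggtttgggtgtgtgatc
The 5 genes Ltb, Pf4, Shisa5, the GTPase Gimap6 and the NF-kB inhibitor Nfkbia formed a group with a mean r of 0.16 and 0.16. RNA of a lymphoid cytokine and of a platelet chemokine thus rose together weakly across cells (Pf4 with Ltb 0.22 and 0.22). The NF-kB site, GGG and TTTCC with any 2 bases between them, was found in 3 of these 5 genes and in 2 of the 5 class I genes, against 1.65% of all genes. Ltb at chr17:35194390-35194459, plus strand, and Nfkbia at chr12:55492648-55492706, minus strand, hold 1 match each, on the strand opposite to the gene, and are shown to compare them.
Ltb: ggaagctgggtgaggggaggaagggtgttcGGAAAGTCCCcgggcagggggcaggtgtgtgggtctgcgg
Nfkbia: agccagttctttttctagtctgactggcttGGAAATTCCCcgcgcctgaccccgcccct

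**Figure D3:**
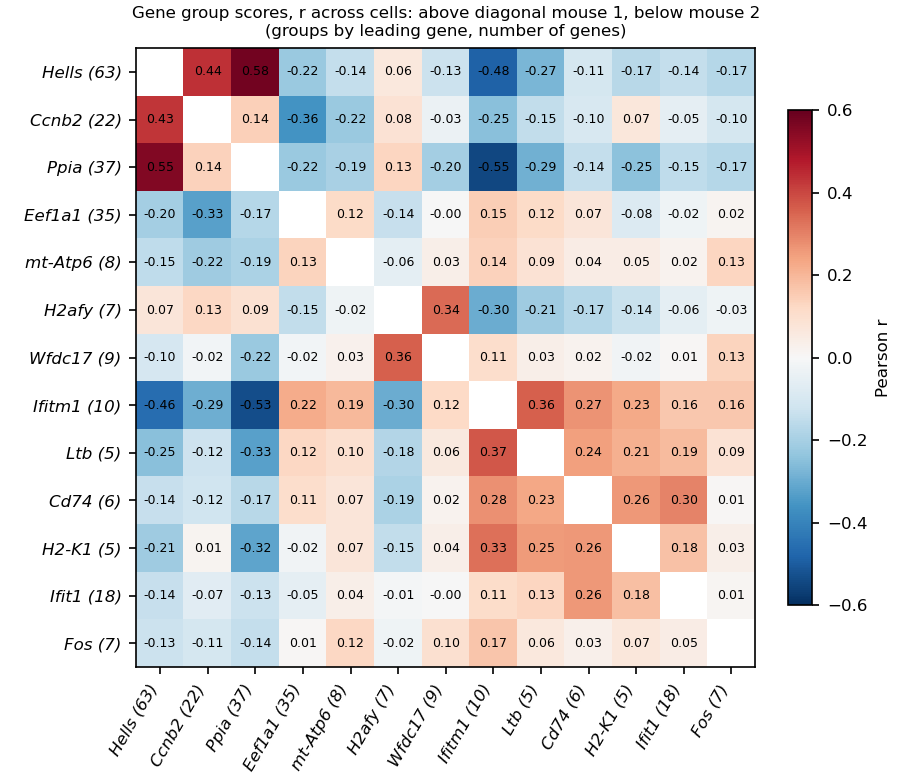
Pearson's r across cells between the scores of 13 gene groups, named by their leading gene with the number of genes, mouse 1 above the diagonal and mouse 2 below it. The Ifitm1 group is blue against Hells, Ppia and H2afy and red with Ltb, Cd74 and H2-K1, in both mice.

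A group led by Ifitm1 ran against the growth and replication groups. The Ifitm1 group held Malat1 and the translation gene Fau with 3 genes known from stem cells: Hlf and Lmo2, both transcriptional regulators, and Mllt3, a chromatin reader that maintains stem cells. Its score had an r of −0.55 and −0.53 with the Ppia group, the lowest of any 2 groups in both mice, and −0.48 and −0.46 with the Hells group. The Hells group also ran against ribosomal protein genes led by Rpl32, at −0.52 and −0.45. The Ifitm1 group also ran against a small group led by the histone variant H2afy with Plac8, Tmsb10 and Serpinb1a, at −0.30 and −0.30. Among single genes Plac8 and Ifitm1 had −0.23 and −0.29, and −0.27 and −0.31 without the cells richest in cell cycle RNA, so this pair was as strong outside them. Plac8 with Mllt3 had −0.21 and −0.15, Plac8 with Pf4 −0.15 and −0.16, and Plac8 with H2afy 0.24 and 0.25. The cell cycle kinase Cdk6 had −0.25 and −0.23 with Ifitm1. The groups are rebuilt only in part by another random thinning, which kept 7 of 10 Ifitm1 group genes and 2 of 7 H2afy group genes together, although the mean r of the same 7 H2afy group genes was then 0.14 and 0.13. Without the cells richest in cell cycle RNA 4 of 10 Ifitm1 group genes and 3 of 7 H2afy group genes stayed together, and the mean r of the Ifitm1 group was 0.11 and 0.12.

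Sorted by the Ifitm1 group score into 4 equal bins, from low to high, the cells changed gradually. These bins rest on the same cells as the group, so the values describe it. Mean Plac8 per cell was 2.49, 2.37, 1.97 and 1.29 thinned UMIs in mouse 1, and 2.74, 2.20, 1.99 and 1.16 in mouse 2. Ly6a ran the other way, at 0.857, 1.21, 1.39 and 2.02 in mouse 1 and 0.951, 1.36, 1.59 and 2.45 in mouse 2. Pf4 was 0.337, 0.475, 0.542 and 0.969 in mouse 1, and 0.295, 0.374, 0.623 and 0.748 in mouse 2. The bins thus ordered Plac8 downward and Ly6a and Pf4 upward in each mouse. Ltb was 1.37 in the lowest and 3.40 in the highest bin of mouse 1, and 1.49 and 3.37 in mouse 2. Meg3 was found in 0.987% of cells of the lowest and 11.2% of the highest bin in mouse 1, and in 1.35% and 10.0% in mouse 2. Mki67 was found in 12.5% and 1.15% of cells of these bins in mouse 1 and in 9.46% and 0.271% in mouse 2. Flt3 did not follow the order: it was highest in the third bin, at 0.863 in mouse 1 and 0.916 in mouse 2, against 0.697 and 0.783 in the highest bin. Stem and multipotent gene lists, 25 and 15 genes from general knowledge of these cells, gave the same opposition in weaker form. Spearman's rho of their summed UMIs was −0.130 and −0.192, and −0.236 and −0.271 without the cells richest in cell cycle RNA. The stem list holds Ifitm1, Hlf and Mllt3 of the Ifitm1 group. The multipotent list holds Plac8 and Tespa1 of the H2afy group, so the lists are no separate check.

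**Figure D4:**
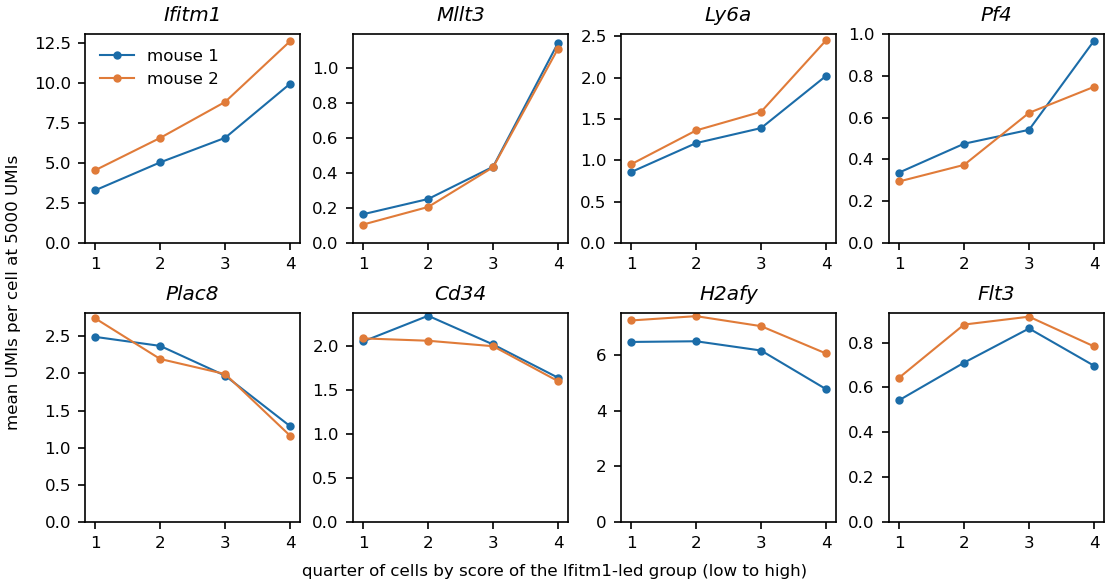
Mean UMIs per cell at 5000 UMIs (y axis, from 0) in 4 equal bins of cells ordered by the Ifitm1 group score (x axis, low to high), 1 line per mouse. Ifitm1 and Mllt3 are members of the group; Ly6a and Pf4 go up, Plac8 goes down and Flt3 peaks in the third bin in both mice.

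Flt3 belonged instead to a lymphoid-leaning group led by Wfdc17. Its 9 genes included Ighm, the immunoglobulin heavy chain gene, Dntt, the template-free polymerase of antigen receptor rearrangement, Il12a, a cytokine subunit, and the adhesion protein Emb, with a mean r of 0.15 and 0.17. Ighm with Wfdc17 had 0.32 and 0.34, Flt3 with Ighm 0.28 and 0.26 and Flt3 with Wfdc17 0.22 and 0.27. Without the cells richest in cell cycle RNA 7 of its 9 genes stayed in 1 group. It went with the H2afy group, at 0.34 and 0.36, and hardly with the Ifitm1 group, at 0.11 and 0.12. Single cells showed the same overlap: 38 cells of mouse 1 held both Dntt and Ighm, where 8.89 would if the 2 genes were independent, and 24 cells of mouse 2, where 5.33 would. Of 1095 Flt3-positive cells in mouse 1, 211 held Ighm, against 131.6 expected, and of 727 in mouse 2, 122 did, against 80.7 expected. Both genes are scarce, with an Ighm UMI in 12.02% and 11.1% of ST-HSC cells, against 0.0916% of LT-HSC cells, and a Dntt UMI in 3.05% and 3.25%, against 0 of 1092 LT-HSC cells. That count allows a share with a UMI of up to 0.275% (3 cells of the total), and before thinning Dntt stood at 0.0755 CPM in that library.

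Myeloid genes were read singly. Prtn3, an azurophil granule protease, was found in 83.5% and 82.7% of ST-HSC cells and in 78.6% of LT-HSC cells. Mpo, the myeloperoxidase of the same granules, was found in 2.88% and 2.37%, and Cebpa, the transcription factor of the myeloid lineage, in 6.21% and 5.15%. Mpo and Cebpa were together in 1 cell of mouse 1, against 4.35 expected, and in 2 cells of mouse 2, against 1.80 expected. Mpo and the granule protease Elane were together in 2 cells of each mouse, against 0.49 and 0.19 expected. Cebpa had positive log2 odds ratios with Prtn3, at 0.54 and 0.27, and with the repressor Gfi1, at 0.49 and 0.22. Cebpa was also found with Ighm, in 33 cells of mouse 1 against 18.1 expected and in 19 cells of mouse 2 against 8.44 expected, and with Flt3, in 82 cells against 68.0 expected and in 50 against 37.4. Mpo and Flt3 were together in 25 cells against 31.5 expected in mouse 1 and in 13 against 17.2 in mouse 2. Dntt and the platelet gene Pf4 were seldom together, in 7 cells of mouse 1 against 19.8 expected and in 2 cells of mouse 2 against 12.1 expected. Among 17 lineage transcription factors measured well enough, of 23 listed, 136 pairs were formed, and only Ikzf2 with Hlf reached an r of 0.1 in both mice, at 0.11 and 0.13. None reached −0.1 in both, so no pair of factors was seen to exclude each other, which in such sparse counts is no sign that none does.

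Cells were next put in classes by whether they held at least 1 UMI of a lineage list. A lymphoid list of 15 genes was found in 37.0% of cells in each mouse, a myeloid list of 14 genes in 89.3% in each, a megakaryocyte list of 13 genes in 40.2% and 38.7%, and an erythroid list of 11 genes in 1.19% and 1.49%. In LT-HSC cells of mouse 2 these were 18.04%, 80.8%, 54.1% and 4.03%. A single gene carried much of 2 lists, Prtn3 of the myeloid and Pf4 of the megakaryocyte list, and Notch1 and Lax1, found in 14.7% and 13.1% and in 12.8% and 13.1% of cells, carried much of the lymphoid list. Lymphoid and myeloid lists occurred together about as often as independence gives, with a log2 odds ratio of 0.20 and 0.06. Lymphoid with megakaryocyte and erythroid lists gave −0.12 and −0.20, and myeloid with them −0.29 and −0.60. Shares and ratios moved with depth and with the UMIs asked for: the lymphoid share, as a mean of the mice, was 26.01% at 3000 and 48.7% at 7500 UMIs. The ratio of myeloid with megakaryocyte and erythroid lists was 0.06 at 3000 UMIs, and that of lymphoid with myeloid lists −0.02 when 2 UMIs were asked of a list, so neither direction was settled. More than 1 program was present in 1410 and 847 cells, a single one in the 49 and 30 lymphoid, 799 and 499 myeloid and 78 and 50 megakaryocyte-erythroid cells, and none in 94 and 51.

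Genes outside all 4 lists were compared between these classes in edgeR's quasi-likelihood test on UMIs summed per class and mouse, with the mouse as a block, over 9270 genes. Because a class of 1 mouse is 1 sum, each class has n = 2, and the classes of a mouse share a library. Lymphoid-only against myeloid-only cells, 30 genes rose and 3 fell (0.324% and 0.0324% of those tested). Flt3 rose, with 193 and 272 CPM in lymphoid-only cells, against 121 and 134 CPM in myeloid-only cells (log2 fold 0.80 ± 0.13 SE, edgeR adjusted p = 0.000325). So did H2afy, with 1429 and 1862 CPM in lymphoid-only cells, against 1228 and 1400 CPM in myeloid-only cells (0.30 ± 0.05, edgeR adjusted p = 0.0019), and Lztfl1, Il12a and Wfdc17. Flt3, Wfdc17, Il12a and Lztfl1 had been grouped with Ighm and Dntt, which help define the class, in the same cells. Their rise therefore restates that grouping in part. Of the H2afy group, which holds no gene of the 4 lists, 3 of 7 rose, at a median log2 fold of 0.42 against 0.004 for all genes. Its score had an r of 0.34 and 0.36 with that of the Wfdc17 group in the same cells, so this rise is not independent of that grouping either. Mllt3 fell, with 38.6 and 59.0 CPM in lymphoid-only cells, against 87.2 and 86.9 CPM in myeloid-only cells (−0.96 ± 0.23, edgeR adjusted p = 0.0357), and Clec2d and Malat1 fell too. Some cell cycle genes rose as well: 7 of 44 tested mitosis list genes, 5 of 22 of the Ccnb2 group and 5 of 63 of the Hells group passed. Few cells stand behind them: the motor gene Cenpe, with 68.5 and 23.6 CPM in lymphoid-only cells, against 17.3 and 10.2 CPM in myeloid-only cells, came from 39 and 6 UMIs in 13 and 3 lymphoid-only cells. Ccnb2, among the genes called, was higher only in mouse 1, with 91.3 and 7.87 CPM in lymphoid-only cells, against 19.9 and 9.71 CPM in myeloid-only cells.

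Against cells with no program, 10 genes rose in lymphoid-only cells and none fell (0.108% and 0%), with 599 of 9270 genes at an unadjusted p below 0.05 and 4 higher and 0 lower in DESeq2. Flt3 had 193 and 272 CPM in lymphoid-only cells, against 99.5 and 117 CPM in cells with no program (1.05 ± 0.17, edgeR adjusted p = 0.000357). H2afy and Serpinb1a of the H2afy group and Wfdc17 rose too. The rise of Flt3 and Wfdc17 again restates their grouping with Ighm and Dntt in part, and the H2afy group is tied to that grouping. Wfdc17 had 179 and 279 CPM in lymphoid-only cells, against 58.7 and 150 CPM in cells with no program, but 1 cell held 67.6% of its lymphoid-only UMIs and 1 cell 71.0% of those with no program in mouse 2. Of the 15 multipotent list genes only Flt3 passed, at a median log2 fold of 0.57, and none of 19 measured stem list genes did. Myeloid-only cells differed from cells with no program in 2 genes, the helicase Dhx38, which rose, and the histone Hist1h2bc, which fell (0.0108% and 0.0108%). Hist1h2bc had 58.6 and 47.8 CPM in myeloid-only cells, against 118 and 95.7 CPM in cells with no program. Dhx38 rests on 3 and 0 UMIs in cells with no program, and with another thinning its log2 fold was 0.14. In megakaryocyte-erythroid cells 10 genes rose and 2 fell against cells with no program (0.108% and 0.0216%). Ltb rose, with 494 and 602 CPM in megakaryocyte-erythroid cells, against 368 and 433 CPM in cells with no program (0.44 ± 0.10, edgeR adjusted p = 0.0268), and H2afy fell, with 931 and 1059 CPM, against 1177 and 1398 CPM (−0.36 ± 0.06, edgeR adjusted p = 0.000854). Ltb had been grouped with the list gene Pf4 in the same cells, so its rise restates that grouping in part. Of the metallothionein Mt1 (log2 fold 3.79), 1 cell of each mouse held 93.6% and 93.3% of the UMIs in megakaryocyte-erythroid cells. The globin Hba-a1 was called too, with 44.5 and 15.9 CPM in megakaryocyte-erythroid cells, against 0.995 and 0 CPM in cells with no program. Of the haem enzyme gene Blvrb and of C1qtnf12, 1 cell of mouse 1 held 76.8% and 71.0%.

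These calls turn on how the classes were drawn and on the block. Without the mouse as a block none of the 4 comparisons called a gene in edgeR, with 404, 413, 194 and 349 genes at an unadjusted p below 0.05, and DESeq2 with the block called 8, 4, 0 and 4. With another random thinning, which puts other cells in the classes, 14 of the 33 genes called between lymphoid-only and myeloid-only cells, 2 of the 10 of lymphoid-only cells against cells with no program, 1 of the 2 of myeloid-only cells, and 6 of the 12 of megakaryocyte-erythroid cells were called again in the same direction. Of the genes named above, Malat1, Il12a and Lztfl1 were called again with another thinning, while Mllt3 (edgeR adjusted p = 0.863), Clec2d, Wfdc17 (0.76) and H2afy (0.299) were not. Against cells with no program, H2afy, Wfdc17 and Serpinb1a in lymphoid-only cells and Ltb and H2afy in megakaryocyte-erythroid cells were not called again either. Mllt3 also lost its call at 3000 UMIs, without the cells richest in cell cycle RNA and in DESeq2. Flt3 was called in each of these settings of both lymphoid comparisons other than the fit without the block. It was also called when 2 UMIs were asked of a list, when cells were thinned to 3000 UMIs and when the cells richest in cell cycle RNA were left out. Its grouping with Ighm and Dntt rests on the same cells, so these calls restate that grouping in part.

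Since Prtn3, Notch1 and Lax1 were also found in 78.6%, 8.97% and 7.51% of LT-HSC cells, narrower lists were also read: the 8 lymphoid and 8 myeloid genes whose level in LT-HSC cells of mouse 2 was under 25% of that in ST-HSC cells. Having been trimmed by levels in these data, they carry no test, and their rarity in LT-HSC cells is by construction. Both lists thus favour cells unlike LT-HSC cells, so their going together may follow in part from the trimming, which was not tested. The lymphoid ones are Dntt, Il7r, Rag1, Rag2, Ighm, Ly6d, Cd7 and Ccr9, and the myeloid ones Mpo, Elane, Ctsg, Ms4a3, Cebpa, Fcgr3, Ly6c2 and Clec12a. They were found in 13.8% and 13.2% and in 13.3% and 10.9% of ST-HSC cells. Lymphoid and myeloid genes then went together, with a log2 odds ratio of 1.13 in mouse 1 and 1.37 in mouse 2. Each went with the megakaryocyte and erythroid lists less than independence gives, lymphoid at −0.61 and −0.88 and myeloid at −0.17 and −0.55. For myeloid this was −0.26 and 0.01 at 3000 UMIs, so the direction was lost in mouse 2. Lymphoid-only cells numbered 171 and 104, myeloid-only cells 143 and 73, megakaryocyte-erythroid cells 781 and 484, and cells with no program 1066 and 678.

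In these classes 70 genes were at least 1.5-fold higher and 69 at least 1.5-fold lower in lymphoid-only cells than in cells with no program in both mice (0.825% and 0.813% of 8484 genes). The Wfdc17 group genes outside the lists were among the higher ones, which follows from their grouping with Ighm and Dntt in the same cells and is a description only. Wfdc17 had 509 and 795 CPM in lymphoid-only cells, against 94.8 and 120.0 CPM in cells with no program, and Wfdc18 97.5 and 125 CPM, against 17.1 and 23.5 CPM. The germ line helicase Ddx4 had 87.9 and 74.7 CPM, against 27.9 and 20.9 CPM. No single cell held more than 9.85% of the Wfdc17 UMIs in these lymphoid-only cells, whereas 1 cell held 27.9% and 27.6% of Wfdc18. Of the multipotent list 8 of 15 genes were 1.5-fold higher, namely Il1r1, Cd48, Cd53, Cd52, Flt3, Tespa1, Emb and Satb1, at a median log2 fold of 0.74, and 14 of 15 were higher by any amount in both mice, against 2301 of 8484 genes. Satb1, a chromatin organiser of lymphoid progenitors, had 90.1 and 71.2 CPM in lymphoid-only cells, against 33.5 and 30.05 CPM in cells with no program. Chemokine genes joined them: Ccl3 had 61.8 and 81.9 CPM, against 32.7 and 37.5 CPM, and Ccl9 24.4 and 20.2 CPM, against 8.48 and 12.4 CPM. Of 19 measured stem list genes 6 were 1.5-fold lower, Tcf15, Mllt3, Pdzk1ip1, Socs2, Esam and Meg3, and none was 1.5-fold higher, at a median of −0.52. Genes scarce in LT-HSC cells define these lymphoid-only cells, so the lower stem and higher multipotent genes may follow in part from that choice. Mllt3 had 48.7 and 55.8 CPM in lymphoid-only cells, against 86.5 and 84.3 CPM in cells with no program, and the transcription factor Gata2 41.9 and 32.03 CPM, against 60.6 and 56.9 CPM. The lipid carrier Apoe had 49.9 and 41.5 CPM, against 117 and 91.2 CPM, and the vesicular monoamine transporter Slc18a2 7.94 and 8.30 CPM, against 36.9 and 35.4 CPM. Ifitm1, with 1105 and 1473 CPM, against 1103 and 1536 CPM, stood at a log2 fold of 0.003 and −0.06, and Malat1 at −0.03 and −0.06.

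**Figure D5:**
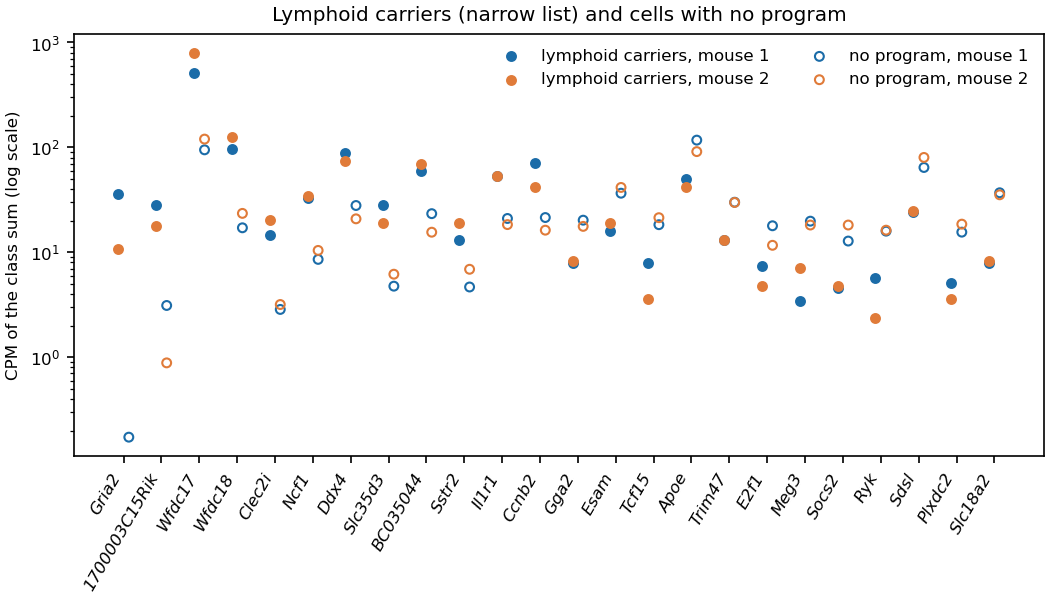
CPM on a log axis (y) of the 12 genes with the largest difference in each direction (x axis) between lymphoid-only cells by the narrow list (filled) and cells with no program (open), by mouse; Gria2 was at 0 in cells with no program of mouse 2 and has no point there. The genes were ranked by their difference in the mouse where it was smaller, among genes that moved alike in both mice. That filled points lie on the same side of open points in both mice thus follows from the selection. Wfdc17 stood at 509 and 795 CPM against 94.8 and 120.0 CPM.

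Between lymphoid-only and myeloid-only cells of the narrow lists 89 genes were at least 1.5-fold higher and 86 lower in both mice (1.05% and 1.01% of 8481). Wfdc17 had 509 and 795 CPM in lymphoid-only cells, against 138 and 121 CPM in myeloid-only cells, Wfdc18 97.5 and 125 CPM, against 17.4 and 21.9 CPM, and Il1r1 53.3 and 53.4 CPM, against 22.9 and 14.1 CPM. Of the multipotent list, 3 of 15 genes, Il1r1, Flt3 and Satb1, differed by that much. Replication genes were lower in lymphoid-only cells, with 47 of 63 Hells group genes lower by some amount in both mice and none higher, against 2325 and 2248 of 8481 genes, the opposite of the genes called with the fixed lists. Between myeloid-only cells and cells with no program 11 genes were higher and 14 lower (0.13% and 0.165% of 8489). Cd48 had 19.2 and 47.0 CPM in myeloid-only cells, against 10.3 and 10.4 CPM in cells with no program, and the monocyte and dendritic factor Irf8 7.44 and 31.3 CPM, against 3.98 and 4.07 CPM, but 1 cell of mouse 2 held 56.7% and 80.0% of them. Isg15 was lower, with 27.3 and 31.3 CPM in myeloid-only cells, against 42.2 and 56.4 CPM in cells with no program. In the larger class of megakaryocyte-erythroid cells no gene was 1.5-fold higher than in cells with no program and 7 were lower (0% and 0.0823% of 8508), all 7 of the cell cycle. Ccnb2 had 9.53 and 4.71 CPM in megakaryocyte-erythroid cells, against 21.5 and 16.3 CPM in cells with no program. All 63 Hells group genes and 21 of 22 Ccnb2 group genes were lower in both mice by some amount, against 2433 of 8508 genes, at medians of −0.30 and −0.42 against −0.005 for all genes. In the same cells 9 of 10 Ifitm1 group genes were higher by some amount, against 2176 of 8508 genes. Ltb, grouped with the list gene Pf4 in these cells, stood at 519 and 534 CPM in megakaryocyte-erythroid cells, against 386 and 379 CPM in cells with no program. Cd74 had 181 and 190 CPM, against 133 and 144 CPM, and the NF-kB subunit gene Relb 21.5 and 24.6 CPM, against 15.1 and 12.5 CPM.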

How the data were processed

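The authors deposited raw UMI counts per gene and barcode, made with Cell Ranger 3.1.0 on the mouse build mm10 per the submitters' processing notes, while the file headers name version 3.0.2. Here cells were filtered, thinned to 5000 UMIs with a fixed random seed and cleared of cells with markers of other cell types. The limits were 10 UMIs of mature neutrophil markers and 5 UMIs of globin genes or of any other listed cell type. Of the 108 and 91 globin cells, 31 and 24 were at the limit with 5 or 6 UMIs, and 31 and 19 cells just below it had 4. Correlations used log-transformed thinned counts in Python 3.11.15 with scipy 1.17.1. Classes were compared on sums of all UMIs of their cells in edgeR 4.0.16 with the mouse as a block (R 4.3.3), at a Benjamini-Hochberg adjusted p of 0.05, with DESeq2 1.42.0 as an alternative. The 2 libraries of a class come from 2 animals, and classes pair within the same animal, so the block was part of the main design. Scrublet came from scanpy 1.11.5. The fits were tested on simulated data.

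Genes were named by rule: the label and gate genes, the 25 highest in CPM, the 25 with the highest variance over mean in the lower library, the closest 20 positive and 10 negative pairs, 6 leading genes of a group, 4 genes of a list, and, past the threshold, 8 genes per direction that averaged at least 10 CPM and moved alike in each mouse. Genes named beyond that rule were chosen after their values were seen. The cells, gene lists and tests were chosen with earlier results of these data known, and the narrow lists, the second thinning and their alternatives were added after seeing the data. Fold changes of classes by the narrow lists are on the log2(CPM + 1) scale. Promoter windows came from RefSeq on GRCm38.p6.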

Additional observations from a re-analysis of the deposited data

How the results depend on the processing

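Values here are means of the 2 mice unless they are counts. The shares of cells with a program depended on depth. At 3000 UMIs the lymphoid, myeloid, megakaryocyte and erythroid shares were 26.01%, 76.72%, 27.85% and 0.8338%, and at 7500 UMIs 48.71%, 96.22%, 48.05% and 1.724%, against 37.04%, 89.28%, 39.45% and 1.341% at 5000. With 2 UMIs asked of a list they were 12.5%, 68.76%, 15.18% and 0.05443%. With the narrow lists, added after seeing the data, the lymphoid and myeloid shares were 13.51% and 12.1%. Without the cells richest in cell cycle RNA the first 3 shares were 38.68%, 89.76% and 41.34%. Another random thinning gave 37.89%, 89.54% and, for erythroid, 1.04%, and a limit of 5% mitochondrial UMIs gave 37.4% and 89.33% for the first 2. The lymphoid share was 37.04% with cells of other types kept, 37.04% without cells rich in azurophil granule RNA and 37.02% without called doublets. A looser filter kept the same cells.

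The log2 odds ratio of lymphoid with myeloid programs, 0.1326, was 0.4197 at 7500 UMIs, 0.3453 with another thinning, 0.4353 at 5% mitochondrial UMIs, 0.01276 without the cells richest in cell cycle RNA and 1.253 with the narrow lists, and reversed to -0.02132 at 2 UMIs. That of lymphoid with megakaryocyte-erythroid programs, -0.1607, was -0.03383 with another thinning, -0.07204 without the cells richest in cell cycle RNA, -1.318 at 2 UMIs and -0.7409 with the narrow lists. That of myeloid with megakaryocyte-erythroid programs, -0.4435, was -0.1099 at 7500 UMIs, -0.1461 with another thinning and -0.2112 at 5% mitochondrial UMIs, and reversed to 0.0637 at 3000 UMIs and 0.009609 at 2 UMIs. With the narrow lists, lymphoid with myeloid was 0.8532 with another thinning and 0.8623 at 3000 UMIs, and myeloid with megakaryocyte-erythroid was -0.1242 at 3000 UMIs. The stem and multipotent rho, -0.1612, was -0.1132 at 7500 UMIs and -0.2536 without the cells richest in cell cycle RNA. Of gene pairs, 902 in the main setting, there were 483 by Spearman's rho, 406 among genes with a mean of 0.2 UMIs, 122 at 3000 UMIs, 4132 at 7500 UMIs, 1413 with cells of other types kept and 202 without the cells richest in cell cycle RNA. The cause of these changes was not tested.

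Genes called in the 4 comparisons of classes, in the order of the report, numbered 33, 10, 2 and 12. With 2 UMIs asked of a list they numbered 184, 197, 96 and 37, with cells of other types kept 16, 6, 9 and 51, without the cells richest in cell cycle RNA 11, 4, 1 and 2, and without the filter on low counts 60, 27, 8 and 31. At 3000 UMIs the last 3 numbered 24, 11 and 26, and with another thinning the third 12. Fitted on the 2 classes alone the first numbered 59 and the third 7. DESeq2 called 8, 4, 0 and 4. Without the mouse as a block, that is unpaired, edgeR called 0 genes in each, with 404, 413, 194 and 349 at an unadjusted p below 0.05.

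With either mouse left out the lymphoid share was 37.03% to 37.04%, the myeloid 89.26% to 89.3%, the megakaryocyte 38.66% to 40.25% and the erythroid 1.193% to 1.49%. The 3 odds ratios were 0.06186 to 0.2033, -0.2041 to -0.1173 and -0.6017 to -0.2853, and with the narrow lists 1.132 to 1.374, -0.8768 to -0.6051 and -0.5515 to -0.1727. The stem and multipotent rho was -0.1923 to -0.1301 and the number of pairs 1202 to 1735. With 1 mouse no test remains: the median absolute log2 fold of the called genes, 0.8431, 1.229, 2.012 and 1.209, was 0.499 to 1.044, 0.7075 to 1.513, 1.539 to 2.484 and 0.6 to 2.008. A program set by 1 UMI in 5000 is limited by depth, so a cell without it may hold the RNA.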
